A study of Danio rerio with 18 samples.

Results

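The transcripts described here are the entries that the deposited zebrafish transcript table annotates as retained intron or as nonsense-mediated decay and that carried at least 10 reads in at least 3 of 18 samples. Of 4205 entries of these classes, 1308 met the rule, among 59876 transcripts of 32520 genes in all. They comprised 1054 retained-intron transcripts of 885 genes and 254 nonsense-mediated-decay transcripts of 237 genes, and 58 genes held both classes. The rule used no difference between groups, but as each group had 3 samples, a member near the minimum could enter through a single group where it was high. The 63 entries just inside the minimum (10 in the third highest sample) had a median mean count of 5.56 reads, and the 92 just outside it (9 there) had 5.14. The RNA came from whole zebrafish larvae of the AB wild-type line aged 120 hours after fertilisation, either controls or exposed to PFBS (perfluorobutane sulfonate, a short-chain perfluoroalkyl acid) at 7, 70, 700, 3500 or 7000 uM. Each of the 6 groups had 3 samples, and all carried the same strain background with no transgene named. The sources used here do not give the vehicle, when exposure began or how many larvae made up a sample. Nor do they say that replicates came from separate clutches or exposures, so every p-value measures only how far these samples differ among themselves, a spread that may be technical.

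A retained-intron transcript keeps an intron that the coding transcripts of its gene remove, and is often held in the nucleus or degraded. A transcript annotated for nonsense-mediated decay carries an early stop codon upstream of an exon junction, which marks it for destruction by the UPF1 and SMG proteins on the ribosome. In vertebrates, many genes of SR proteins, CLK kinases and other splicing factors limit their own output by shifting splicing from the coding to such a non-coding form, so the balance of both forms within a gene is a common readout of splicing control.

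Both classes were mostly minor products of their genes. For each member with a coding transcript of the same gene (1277 of 1308), the share is its reads in percent of its own reads plus the summed reads of the coding transcripts. The median share over all 18 samples was 3.02% for retained-intron members (quartiles 1.02% and 8.24%) and 7.63% for nonsense-mediated-decay members (quartiles 1.96% and 27.0%). A share under 5% was found for 644 retained-intron members (62.8%) and 105 nonsense-mediated-decay members (41.8%), while 32 (3.12%) and 38 (15.1%) exceeded 50%. Retained-intron members were short, with a median length of 554 bases against 762 bases for the other class, and 1118 members (87.5% of those with a coding transcript) lay inside the span of the coding transcripts of their gene. Median levels per length were 2.44 TPM (a level corrected for transcript length and library size) and 1.91 TPM. The sources used here do not say how reads were divided among overlapping transcripts, whether strand was used or how multi-mapping reads were treated, so shares and the counts of genes with near-identical copies are uncertain.

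The retained-intron members with the most reads came mainly from genes of the ribosome and the lens. Transcript rpl24-204, from a gene of the large ribosomal subunit, had the highest mean level at 1505 TPM and a mean share of 61.9%. Another ribosomal member, rpl13a-203, had 1142 TPM and a share of 42.6%. A cluster of gamma M crystallin genes, which encode lens proteins and lie close together on chromosome 9, gave 4 of them, crygm2d3-201 (1260 TPM), crygm2d17-203 (1202 TPM), crygm2d21-201 (1120 TPM) and crygm2d7-202 (620 TPM), and reads may be shared among these paralogues. The myosin light chain member mylz3-202 had 519 TPM and srsf5a-202 had 107 TPM. The nonsense-mediated-decay members with the most reads included fkbp1aa-202 (326 TPM, from a gene of the FK506-binding prolyl isomerases), hnrnpa0b-201 (73.1 TPM) and a pair from tardbpl, a paralogue of the TDP-43 RNA-binding protein gene, with 65.4 TPM for tardbpl-201 and 48.9 TPM for tardbpl-202. The tardbpl pair held mean shares of 81.0% and 80.6%, each computed against the coding reads alone.

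Libraries held 14937147 to 19267232 counted reads. Members took 0.834% to 0.923% of these in controls, 0.85% to 0.917% at 7 uM, 0.921% to 0.933% at 70 uM, 0.932% to 1.01% at 700 uM, 0.905% to 1.02% at 3500 uM and 1.09% to 1.22% at 7000 uM, where all 3 samples lay above every other library. Replicate 3 of the 7000 uM group stood apart from its partners (chi-square per degree of freedom 48.5 and 55.5, against 8.95 to 27.8 in all the other pairs within a group), and counts that rest on it are given without it below. Summed marker levels also differed from controls at 7000 uM and in other exposed groups. Levels in CPM are counts scaled to library size, adjusted by a TMM normalisation factor. Skeletal muscle markers covered 17 table genes for 16 symbols, none at 0. They summed to 132500 to 138700 CPM in controls and 31370 to 87380 at 7000 uM. Epidermis and notochord markers (12 of 12 found, none at 0) fell from 14560 to 17770 CPM to 2763 to 8413 CPM, and photoreceptor markers (15 of 15 found, none at 0) went from 11360 to 12040 CPM to 16190 to 24110 CPM. At 700 uM muscle markers (90510 to 112100 CPM) and epidermis and notochord markers (5770 to 11510 CPM) also lay below all controls. Photoreceptor markers lay above them there, at 15650 to 19360 CPM. Liver markers (12 of 12 found, none at 0) had 447.6 to 927.6 CPM in controls and 204.8 to 342.2 CPM at 3500 uM. The part of these markers in the results below was not tested, and in whole bodies fewer cells of a type and less RNA per cell cannot be told apart.

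At 7 uM no member passed the threshold of the main test against control. Levels were tested with edgeR's quasi-likelihood test on all transcripts, and a transcript is called when its Benjamini-Hochberg adjusted p is below 0.05. None of 1279 tested members was called at 7 uM, as against 0% of all transcripts tested. At an unadjusted p under 0.05 there were 58 members, beside 1346 of all 31721 transcripts. DESeq2 called 2 members, beside 66 of all transcripts. At 70 and 700 uM 1 member was higher at each and none lower, where 0.0284% and 0.132% of all transcripts were called higher. It was the same transcript at both, ucp2-202, a retained-intron form of a mitochondrial uncoupling protein gene at 36667996 to 36668878 on chromosome 10. With DESeq2, 4 members were called at 70 uM and 16 at 700 uM, beside 163 and 767 of all transcripts.

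Level of ucp2-202 by sample was 3.94, 4.40 and 3.56 CPM in controls, 10.3, 10.6 and 7.42 at 7 uM, 11.02, 7.24 and 9.90 at 70 uM, and 8.52, 7.59 and 9.46 at 700 uM. It reached 15.6, 9.89 and 10.4 CPM at 3500 uM and 5.26, 5.51 and 4.93 CPM at 7000 uM. Every exposed sample lay above the control range, and the 7000 uM samples lay below all the other exposed ones. The log2 fold change by edgeR's quasi-likelihood test was 1.24 at 70 uM (adjusted p = 0.0439), 1.1 at 700 uM (adjusted p = 0.0474) and 1.59 ± 0.20 (SE) at 3500 uM (adjusted p = 0.00148), but 1.25 at 7 uM (adjusted p = 0.107) and 0.40 at 7000 uM (adjusted p = 0.205) were not called. Summed coding reads of ucp2 went from a mean of 76.3 CPM in controls to 159 CPM at 3500 uM and 152 CPM at 7000 uM. The 70 uM call was lost without any single control or 70 uM sample or 7000 uM replicate 3, and the 700 uM call without any single control or 700 uM sample, with adjusted p up to 0.272 and 0.201.

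At 3500 uM 19 members rose (17 retained intron, 2 nonsense-mediated decay) and 12 fell (10 and 2). All transcripts gave 1.83% higher and 1.45% lower. In both directions together 2.42% of members were called, against 3.28% of all transcripts. Median log2 fold changes were 1.26 and −0.91, and 4 of the falls were in members of splicing genes. Control and 3500 uM levels did not overlap in 18 of the 19 rises and in all 12 falls. As these members were already picked by the call, this adds little to it. How often levels do not overlap over all transcripts was not counted. The total of 31 fell to 9 without control replicate 1, 10 without control replicate 2, 14 without 3500 uM replicate 1 and 18 without 3500 uM replicate 3, and was 72 without 3500 uM replicate 2. DESeq2 called 59.

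Among the rises at 3500 uM, prkg1b-202, from a gene of cyclic GMP-dependent protein kinase, had 4.91, 4.54 and 4.21 CPM in controls and 18.7, 19.2 and 11.98 CPM at 3500 uM. These groups did not overlap, and at 7000 uM its level was back at 3.91, 4.06 and 2.61 CPM. The fit gave a log2 fold change of 1.86 ± 0.29 (edgeR quasi-likelihood, adjusted p = 0.00446), and the coding reads of prkg1b rose by 1.88 ± 0.19 (adjusted p = 3.92e-05), so its share of the gene was 17.2% to 20.7% in controls and 15.2% to 21.1% at 3500 uM. For mibp-206 the level went from 1.46, 2.54 and 2.02 CPM to 5.52, 6.25 and 3.69 CPM (log2 fold change 1.36 ± 0.23, adjusted p = 0.00787 by edgeR) while its coding reads were not called (0.12 ± 0.10). Of the other rises named by rank, rhcga-202, from a gene of the ammonia transporter family, rose by 1.66 ± 0.34 (edgeR adjusted p = 0.0195). Members phka1b-205 (1.71), srd5a2a-203 (2.32), rps15a-201 (1.79) and si:dkey-154b15.1-201 (1.37) were also called. The calls of these 5 were lost without control replicate 1, control replicate 2 or 3500 uM replicate 1, and all but rps15a-201 without control replicate 3 and all but rhcga-202 without 3500 uM replicate 3, with adjusted p up to 0.162. Those of srd5a2a-203 and rps15a-201 were also lost with DESeq2.

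The falls at 3500 uM were led by retained-intron forms of an enzyme of glyoxylate metabolism and of the polyamine enzyme AMD1. Transcript grhprb-203 had 1.51, 2.07 and 1.07 CPM in controls and 0.310, 0.195 and 0.238 CPM at 3500 uM (log2 fold change −2.61 ± 0.45, edgeR adjusted p = 0.0079), and its call was lost with DESeq2. The coding reads of grhprb were also lower (−1.12 ± 0.26, adjusted p = 0.0164). Adenosylmethionine decarboxylase, encoded by amd1, makes the aminopropyl donor of polyamine synthesis, and amd1-202 (chromosome 20, 2971476 to 2972249) had 5.88, 7.34 and 5.64 CPM in controls against 2.30, 2.67 and 2.74 CPM at 3500 uM. All 3 exposed samples lay below all controls, and at 7000 uM the values were 5.26, 5.03 and 4.93 CPM. The level of amd1-202 was lower by a log2 change of −1.29 ± 0.15 (edgeR adjusted p = 0.000765) while its coding reads, 183, 194 and 189.5 CPM in controls and 152, 163 and 181 CPM at 3500 uM, were not called (−0.17 ± 0.09, adjusted p = 0.253).

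The 4 called members of the splicing gene lists fell at 3500 uM. The level of srrm1-207, from the gene of the splicing coactivator SRRM1, was 7.12, 9.54 and 7.48 CPM in controls and 3.97, 3.52 and 3.34 CPM at 3500 uM (log2 fold change −1.15 ± 0.18, edgeR adjusted p = 0.00452). For sf3b1-202, from the gene of the branch-site binding subunit of the U2 particle, the values were 11.4, 13.2 and 13.1 CPM in controls and 6.45, 6.31 and 6.67 CPM at 3500 uM (−0.95 ± 0.12, adjusted p = 0.00137). In both, the 3 exposed samples lay below all controls and the summed coding reads were not called (−0.01 ± 0.12 and −0.07 ± 0.14). At 7000 uM sf3b1-202 was at 9.52, 10.5 and 8.85 CPM (−0.39 ± 0.12, edgeR adjusted p = 0.042), a call lost under 8 alternatives, among them without any control and without 7000 uM replicate 1 or 3 (adjusted p up to 0.178). The remaining called members of splicing genes were pnisr-205 (−0.87 ± 0.21) and clk2a-203 (−0.59 ± 0.13), both lost without any control and without 3500 uM replicate 1 or 3, with adjusted p up to 0.128 and 0.126. Members ubr4-203 (−1.1), slc25a36a-203 (−1.03) and ogt.1-205 (−0.68) were named by rank. They were lost without control replicate 1 or 2, ubr4-203 and slc25a36a-203 without control replicate 3, and slc25a36a-203 and ogt.1-205 without 3500 uM replicate 1 or 3 (adjusted p up to 0.136).

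At 7000 uM 89 members of 84 genes rose (69 retained intron, 20 nonsense-mediated decay) and 37 members of 36 genes fell (24 and 13). The background over all transcripts was 7.69% higher and 6.53% lower. In both directions together 9.85% of members were called (9.04% of retained-intron and 13.2% of nonsense-mediated-decay members). This compares with 14.2% of all transcripts and 19.8% of the coding transcripts of the same genes. The median log2 fold change was 0.88 among the rises, −1.48 among the falls and 0.13 over all 1279 tested members. Control and 7000 uM levels did not overlap in 88 of the 89 rises and in all 37 falls. Among called members, levels outside the control range therefore add little to the call. How often this occurs over all transcripts was not counted. Calls followed read number, from 2 of 324 members in the lowest quartile of mean count (3.06 to 9.61 reads, 0.617%), through 7 of 316 and 29 of 319, to 88 of 320 in the highest (55.8 to 9092 reads, 27.5%). The total of 126 was 39 without control replicate 1, 54 without control replicate 2 and 73 without 7000 uM replicate 1. It was 50 without 7000 uM replicate 3 and 83 with no filter on low counts. Over all transcripts the 4510 calls became 1650, 2180, 3183, 1616 and 3363 in the same runs.

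**Figure D1:**
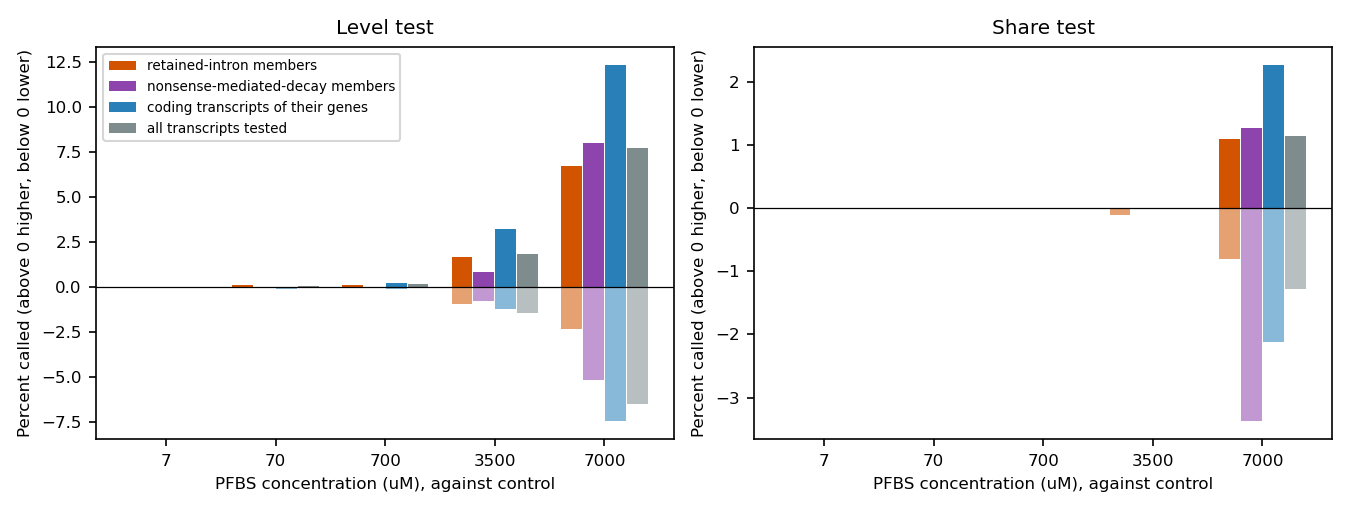
Percent of tested transcripts called (adjusted p below 0.05) against control at each PFBS concentration in uM, for levels and for shares, by class of transcript. At 7000 uM 9.04% of retained-intron and 13.2% of nonsense-mediated-decay members had a called level, against 19.8% of coding transcripts of the same genes and 14.2% of all transcripts.

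Genes of SR proteins, which bind exonic enhancers and recruit the spliceosome, gave 6 rises and 1 fall among 26 tested members at 7000 uM, against 7.69% and 6.53% of all transcripts. Without 7000 uM replicate 3 they gave 4 rises and 0 falls, beside 37 and 13 of all 1279 tested members. Over the 26 SR members the median log2 fold change was 0.13, the same as over all tested members. Their median log2 change against the coding reads of the gene was −0.11, and coding reads of 19 SR genes had a median of 0.35. In srsf5a both the retained-intron form srsf5a-202 (chromosome 13, 36530230 to 36535072, minus strand, 2125 bases) and the nonsense-mediated-decay form srsf5a-203 (36530420 to 36535072, 1283 bases) rose. Level of srsf5a-202 was 168, 156 and 203 CPM in controls, 133 to 163.5 CPM at 7 uM, 135 to 149 at 70 uM, 150.3 to 216 at 700 uM, 144 to 253 at 3500 uM, and 336, 336 and 366 CPM at 7000 uM. The 7000 uM samples lay above all the other samples, the 70 uM samples lay below all controls without a call, and the other exposed groups overlapped controls. The log2 fold change was 0.98 ± 0.17 (edgeR quasi-likelihood, adjusted p = 0.00373).

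The share of srsf5a-202 was 50.1%, 49.7% and 53.8% in controls, 55.4%, 45.5% and 56.9% at 3500 uM, and 71.4%, 72.0% and 70.5% at 7000 uM. Reads of the 4 coding transcripts went the other way, from 168, 158 and 174 CPM to 135, 130.5 and 153 CPM (−0.25 ± 0.08, edgeR adjusted p = 0.0312). In the test of shares, which fits each member's reads against the coding reads of its gene in one edgeR quasi-likelihood model with an interaction term, the member-to-coding ratio rose by 1.24 ± 0.17 on the log2 scale (adjusted p = 0.00688). The call was lost with edgeR's diffSpliceDGE (adjusted p = 0.626), which sets each transcript against all transcripts of the gene, other members included. For srsf5a-203 the level went from 12.95, 8.21 and 15.2 CPM to 28.3, 28.0 and 26.4 CPM (1.18 ± 0.23, adjusted p = 0.00572) and the ratio rose by 1.49 ± 0.24 (adjusted p = 0.015), a call of the ratio lost with diffSpliceDGE and without control replicate 1 or 2 (adjusted p up to 0.598). Both srsf5a members overlap over almost their whole span, so their counts share sequence.

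Other SR genes gave smaller rises of retained-intron forms. Transcript srsf6b-204 went from 16.1, 18.4 and 21.5 CPM to 33.2, 25.5 and 35.7 CPM (0.76 ± 0.14, edgeR adjusted p = 0.00453), and the coding reads of srsf6b rose by 0.56 ± 0.12 (adjusted p = 0.00334), so that its share was 9.03% to 10.3% in controls and 10.2% to 11.9% at 7000 uM. The nonsense-mediated-decay form of the same gene, srsf6b-203, fell, from 15.4, 13.3 and 14.7 CPM to 9.35, 8.78 and 9.76 CPM (−0.64 ± 0.20, adjusted p = 0.0456), and its share dropped from 8.67%, 7.40% and 7.30% to 3.67%, 3.75% and 3.29%. The exposed shares lay below all controls, with a log2 change of the ratio of −1.19 ± 0.22 (edgeR adjusted p = 0.0276). Both calls of srsf6b-203 were lost without any control and without 7000 uM replicate 1 or 3, the level also without 7000 uM replicate 2 (adjusted p up to 0.135 and 0.107).

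For srsf11-201, from an SR-related gene, the level was 7.66, 6.87 and 8.78 CPM in controls and 15.01, 12.6 and 14.0 CPM at 7000 uM (0.83 ± 0.14, edgeR adjusted p = 0.00321), with coding reads also higher (0.56 ± 0.15, adjusted p = 0.0122). Transcript srsf2a-210 had 10.4, 12.9 and 11.99 CPM against 22.2, 18.04 and 26.0 CPM (0.91 ± 0.21, adjusted p = 0.0127), and its share was 7.92%, 9.04% and 7.80% in controls and 13.4%, 11.2% and 14.6% at 7000 uM (ratio 0.74 ± 0.18, adjusted p = 0.0484). Transcript srsf3b-206 rose from 43.1, 42.2 and 57.3 CPM to 81.0, 69.3 and 91.5 CPM (0.76 ± 0.22, edgeR adjusted p = 0.0347). In each of these genes the exposed levels lay above all controls. The level call of srsf2a-210 was lost without control replicate 1 or 7000 uM replicate 3 (adjusted p up to 0.0628), its share call without any control or without 7000 uM replicate 1 or 3 (up to 0.175), and the call of srsf3b-206 without control replicate 1 or 2 or 7000 uM replicate 1 or 3 (up to 0.129). The share call of srsf2a-210 was also lost with diffSpliceDGE and when replicate number was fitted as a block.

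**Figure D2:**
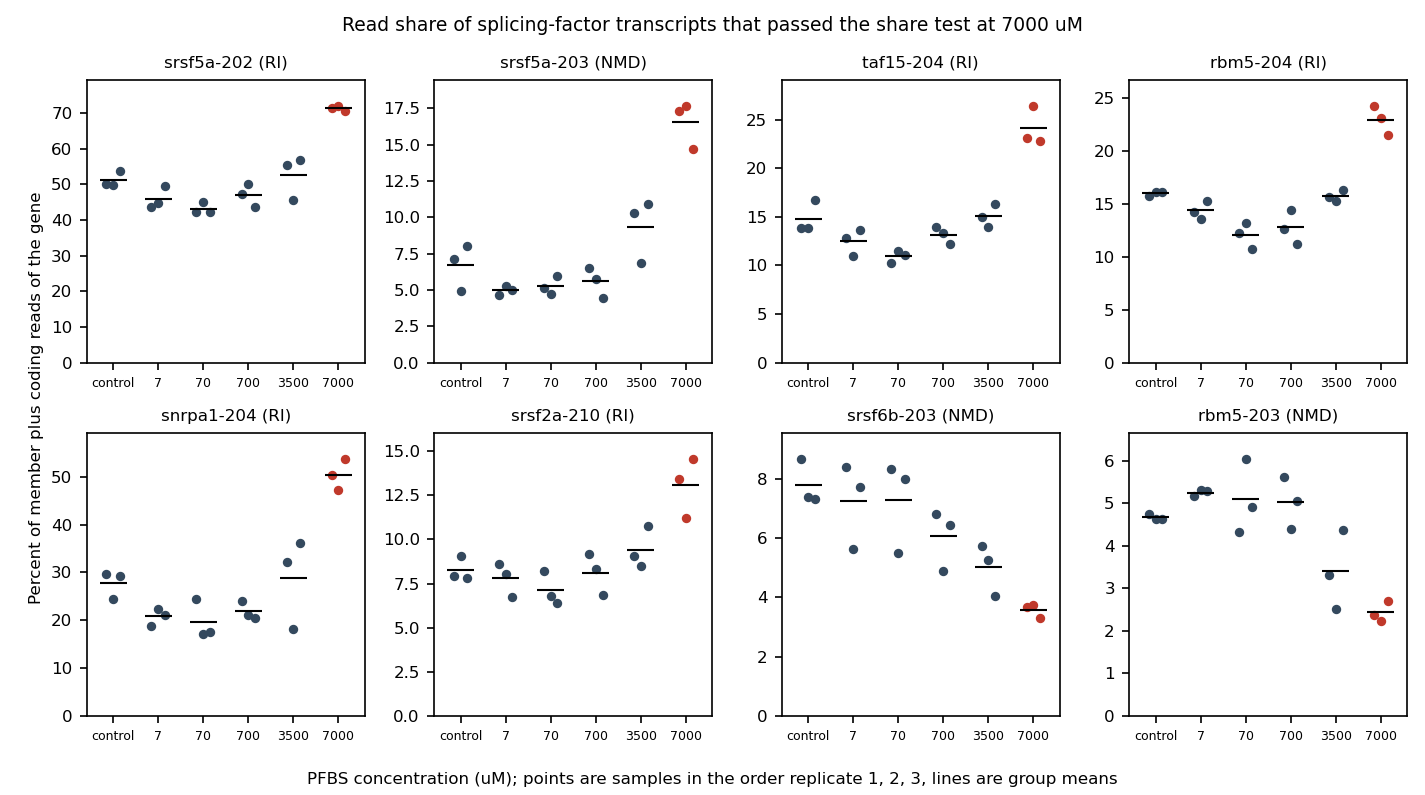
Share of the gene's member plus coding reads (percent, y axis) for 8 members of splicing genes in each sample of the 6 groups (PFBS concentration in uM, x axis); points are samples and lines are group means. The 7000 uM samples of srsf5a-202 sit at 70.5% to 72.0%, above the controls at 49.7% to 53.8%, while those of srsf6b-203 sit at 3.29% to 3.75%, below the controls at 7.30% to 8.67%.

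CLK kinases phosphorylate SR proteins and control where they reside in the nucleus. The nonsense-mediated-decay form clk2a-205 (chromosome 19, 9150094 to 9169225) rose from 37.1, 43.1 and 67.1 CPM in controls to 118, 72.9 and 176 CPM at 7000 uM (1.32 ± 0.33, edgeR adjusted p = 0.0179). Its share was 25.6%, 30.1% and 37.0% in controls and 54.4%, 41.9% and 66.4% at 7000 uM, which did not overlap, but the ratio was not called (1.43 ± 0.40, adjusted p = 0.0719). The retained-intron form of the same gene, clk2a-203, lay at 9.29, 11.3 and 9.98 CPM at 7000 uM against 13.1, 12.3 and 14.8 CPM in controls (−0.40 ± 0.13, adjusted p = 0.057, not called), and coding reads of clk2a were not called (−0.15 ± 0.12). In clk4b the retained-intron form clk4b-201 held most of the reads, with a share of 63.3% to 67.3% in controls and 73.1% to 79.7% at 7000 uM. Its level rose from 33.8, 35.0 and 44.5 CPM to 68.2, 56.6 and 76.9 CPM (0.83 ± 0.21, edgeR adjusted p = 0.0192). Both rises were lost without control replicate 1, control replicate 2 or 7000 uM replicate 3, with adjusted p up to 0.0982 for clk2a-205 and 0.0842 for clk4b-201.

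Genes of the FET family of RNA-binding proteins (TAF15 and EWSR1) also gave retained-intron rises at 7000 uM. Level of taf15-204 (chromosome 15, 1830270 to 1834822) was 18.02, 16.1 and 23.2 CPM in controls, 20.5, 14.9 and 24.4 CPM at 3500 uM and 36.9, 37.8 and 36.5 CPM at 7000 uM. The 3500 uM samples overlapped controls and the 7000 uM samples lay above all of them (0.96 ± 0.17, edgeR adjusted p = 0.0034). Its share was 13.8%, 13.8% and 16.7% in controls and 23.1%, 26.4% and 22.8% at 7000 uM (ratio 0.88 ± 0.15, adjusted p = 0.0199), while coding reads of taf15 were not called (0.11 ± 0.10, adjusted p = 0.451). The share call was lost with diffSpliceDGE and without control replicate 1 or 2 (adjusted p up to 0.0919). From the EWSR1 genes, ewsr1a-204 rose from 42.1, 31.7 and 45.4 CPM to 62.7, 62.3 and 62.3 CPM (0.65 ± 0.15, edgeR adjusted p = 0.0116), a call lost without control replicate 2 (adjusted p = 0.0507). Transcript ewsr1b-205 rose by 0.59 ± 0.15 (adjusted p = 0.0213), lost without control replicate 1 or 2 or 7000 uM replicate 1 or 3 (up to 0.0906).

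The hnRNP genes, whose products coat nascent RNA, gave 3 rises and no fall among 22 tested members of the hnRNP list, where 7.69% of all transcripts were called higher and 6.53% lower. Transcript hnrnpl-204 went from 1.40, 2.34 and 2.43 CPM to 5.72, 4.54 and 6.41 CPM (1.43 ± 0.38, edgeR adjusted p = 0.0223). Transcript hnrnpk-204 went from 1.78, 1.67 and 2.20 CPM to 3.15, 3.03 and 3.52 CPM (0.78 ± 0.22, adjusted p = 0.0316). The third, hnrnpa0b-203, rose by 1.36 ± 0.41 (adjusted p = 0.0397) from 0.400 to 1.19 CPM in controls. Of these 3 genes, coding reads were called higher only for hnrnpa0b (0.51 ± 0.13, edgeR adjusted p = 0.00973). All 3 calls were lost without control replicate 1 or 2 or 7000 uM replicate 3, hnrnpa0b-203 also without control replicate 3 and the others also without 7000 uM replicate 1 (adjusted p up to 0.212), and without 7000 uM replicate 3 no hnRNP member was called. The RNA-binding protein gene rbmx, related to the hnRNPs but held in the list of other splicing regulators, had a nonsense-mediated-decay form that fell. Level of rbmx-204 was 16.9, 16.3 and 16.9 CPM in controls and 7.07, 8.84 and 12.2 CPM at 7000 uM (−0.83 ± 0.21, edgeR adjusted p = 0.0175), and its share went from 18.6%, 18.6% and 16.2% to 7.47%, 9.32% and 12.3% (ratio −1.04 ± 0.22, adjusted p = 0.0339). At 70 and 700 uM rbmx-204 lay at 21.7 to 26.1 CPM, above the controls, without a call. The level call of rbmx-204 was lost without control replicate 1 or 7000 uM replicate 1 and the share call without any control or 7000 uM replicate 1 (adjusted p up to 0.0629 and 0.116).

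RBM5 regulates splice site pairing, including that of apoptosis genes, and its gene held members that went opposite ways. The retained-intron form rbm5-204 (chromosome 6, 53273840 to 53282573) rose from 38.4, 37.8 and 49.0 CPM in controls to 107.5, 91.3 and 104 CPM at 7000 uM (1.27 ± 0.22, edgeR adjusted p = 0.00349). Coding reads of rbm5 rose less, by 0.64 ± 0.18 (adjusted p = 0.0159), and the share of rbm5-204 was 15.8%, 16.1% and 16.1% in controls and 24.2%, 23.1% and 21.4% at 7000 uM (ratio 0.64 ± 0.13, adjusted p = 0.0339). The nonsense-mediated-decay form rbm5-203 was at 10.2, 9.54 and 12.3 CPM in controls and 8.18, 6.90 and 10.5 CPM at 7000 uM, which overlapped. Its share, against the higher coding reads, was 4.75%, 4.62% and 4.62% in controls and 2.38%, 2.22% and 2.70% at 7000 uM (ratio −0.98 ± 0.19, edgeR adjusted p = 0.0293). Both share calls were lost with diffSpliceDGE, without any control and without 7000 uM replicate 1 or 3 (adjusted p up to 0.164 and 0.107), and the level call of rbm5-204 held in every alternative run.

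Among 9 tested members of spliceosome core genes, 2 rose and 2 fell, against 7.69% and 6.53% of all transcripts, and 1 rose and 1 fell without 7000 uM replicate 3. SNRPA1 is a protein of the U2 particle, and the retained-intron form snrpa1-204 (chromosome 7, 9302610 to 9305529) rose from 7.99, 4.94 and 7.18 CPM in controls to 17.99, 12.96 and 18.9 CPM at 7000 uM (1.31 ± 0.28, edgeR adjusted p = 0.00881). Its share was 29.7%, 24.3% and 29.2% in controls, 32.2%, 18.1% and 36.1% at 3500 uM and 50.3%, 47.2% and 53.7% at 7000 uM (ratio 1.41 ± 0.31, adjusted p = 0.0398). The 7000 uM samples lay above all the others, the 3500 uM samples fell on both sides of the control range, and the coding reads of snrpa1 were not called (−0.08 ± 0.10). Its share call was lost with diffSpliceDGE, without any control and without 7000 uM replicate 1 or 3 (adjusted p up to 0.136). The other rise was sf1-201, from the gene of the branch point binding protein SF1 (0.66 ± 0.20, adjusted p = 0.0417), lost without control replicate 1 or 2 or 7000 uM replicate 1 or 3 (up to 0.174).

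The falls among core genes were sf3b1-202, given above, and prpf38b-202, a nonsense-mediated-decay form of a pre-mRNA splicing factor gene. Level of prpf38b-202 was 8.31, 6.94 and 8.07 CPM in controls and 4.32, 3.63 and 5.22 CPM at 7000 uM (−0.82 ± 0.15, edgeR adjusted p = 0.00467). Its coding reads rose by 0.27 ± 0.09 (adjusted p = 0.0353), and its share went from 21.7%, 17.2% and 17.6% through 14.5%, 13.4% and 12.7% at 3500 uM to 10.4%, 8.13% and 10.8% at 7000 uM. Neither exposed group overlapped controls. The ratio was lower by −1.1 ± 0.19 at 7000 uM (adjusted p = 0.0217), a call lost with diffSpliceDGE and without control replicate 1 or 2 (adjusted p up to 0.166), and was not called at 3500 uM (−0.57 ± 0.19, adjusted p = 0.215).

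Counted over 5 lists (SR proteins, hnRNPs, other splicing regulators, spliceosome core and factors of nonsense-mediated decay), 53 genes held 96 members, of which 95 were tested. Members of the other splicing regulators gave 6 rises and 1 fall among 37 tested at 7000 uM, and 3 and 1 without 7000 uM replicate 3. Over all 5 lists 17 rose and 4 fell, where 7.69% and 6.53% of all transcripts were called, with a median log2 fold change of 0.24, beside 0.13 over all members tested, and without 7000 uM replicate 3 the counts were 8 and 2 (0.22, beside 0.11). In the share test 6 rose and 4 fell, where 1.15% and 1.28% of all transcripts tested were called, and 3 rose and 2 fell without that replicate. Coding reads summed per gene rose in 36 and fell in 11 of 176 tested genes of these lists, where 12.8% of all genes were called higher and 12.4% lower. Without 7000 uM replicate 3 the coding counts were 7 and 4 of 176, beside 1286 and 981 of all 20223 genes. In the same fits 37 of all 1279 tested members were higher and 13 lower by level, and 4 and 5 of 1237 by share. Over all transcripts 1616 of 31721 were called by level and 70 of 17138 by share. SR protein genes had the highest count of called coding rises, with 12 of 19 higher and 1 (srsf5a) lower, and 2 higher and 1 lower without that replicate.

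Of 25 tested genes that carry out nonsense-mediated decay, 3 had higher and 2 lower coding reads at 7000 uM, where 12.8% and 12.4% of all genes were called. Their median log2 fold change was 0.03, and without 7000 uM replicate 3 the counts were 1 and 0, beside 1286 and 981 of all 20223 genes. Among those called, casc3, of the exon junction complex, rose by 0.30 ± 0.10 (edgeR adjusted p = 0.037) and pnrc2, a decapping cofactor, by 0.31 ± 0.10 (adjusted p = 0.0336). The phosphatase adaptor gene smg5 was at −0.24 ± 0.08 (adjusted p = 0.0414) and the endonuclease gene smg6 at −0.25 ± 0.08 (adjusted p = 0.0361). Only 1 factor of this list held a member, ruvbl1-202, which was not called. At 3500 uM the 5 lists had 0 members higher and 4 lower by level, against 1.83% and 1.45% of all transcripts, while their coding reads were called higher in 10 and lower in 5 of 176 genes, where 5.02% and 4.31% of all genes were called.

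Outside splicing genes, the largest rise at 7000 uM among members with at least 1 CPM in the higher group was that of nmrk2-203. A retained-intron member below that level rose by 3.19. The product of nmrk2 phosphorylates nicotinamide riboside on the way to NAD, and a second form of the gene, nmrk2-204, ranked 6 among the rises. Level of nmrk2-204 (chromosome 2, 55984621 to 55990322) was 9.39, 10.5 and 15.3 CPM in controls, 11.2 to 17.3 CPM at 7 uM, 13.4 to 18.3 at 70 uM, 17.6 to 21.9 at 700 uM, 24.5, 25.3 and 28.5 CPM at 3500 uM and 46.5, 43.0 and 30.9 CPM at 7000 uM. Samples of the 700 uM, 3500 uM and 7000 uM groups all lay above the controls, and the 7000 uM samples above all the rest. The log2 fold change was 1.15 ± 0.21 at 3500 uM (edgeR adjusted p = 0.0114) and 1.77 ± 0.21 at 7000 uM (adjusted p = 0.000355). Its share was 21.1%, 21.3% and 29.5% in controls and 52.9%, 46.7% and 48.5% at 7000 uM (ratio 1.64 ± 0.23, adjusted p = 0.00742), a call lost without control replicate 1 (adjusted p = 0.0523).

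The sister form nmrk2-203 rose from 0.917, 2.20 and 0.831 CPM to 10.4, 6.12 and 9.08 CPM (2.70 ± 0.50, edgeR adjusted p = 0.00455), with a share of 2.23% to 5.38% in controls and 11.1% to 21.7% at 7000 uM. Its ratio rose by 2.65 ± 0.60 (adjusted p = 0.0428), a call lost without any control and without 7000 uM replicate 1 or 3 (up to 0.147). That share call was also lost when replicate number was fitted as a block. Coding reads of nmrk2 were higher at 3500 uM (0.78 ± 0.18, adjusted p = 0.0133) and not called at 7000 uM (0.17 ± 0.18, adjusted p = 0.498). Both nmrk2 members span nearly the same interval. Transcript phka1b-205, from a gene of a phosphorylase kinase subunit that activates glycogen breakdown, rose from 1.51, 1.00 and 1.60 CPM to 9.40, 6.18 and 3.52 CPM (2.20 ± 0.43, edgeR adjusted p = 0.00582), together with its coding reads (1.36 ± 0.25, adjusted p = 0.00142). Transcript atf7ip2-201 rose from 0.917, 0.334 and 1.90 CPM to 3.97, 4.42 and 4.42 CPM (2.01 ± 0.40, adjusted p = 0.0063).

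Other rises in rank order were apoa4b.1-202, from an apolipoprotein gene (2.07 ± 0.59, edgeR adjusted p = 0.0305), ankrd10b-205 (1.5 ± 0.41, adjusted p = 0.0266) and polr2i-203, from a subunit gene of RNA polymerase II (1.45 ± 0.44, adjusted p = 0.0415). All 3 were lost without control replicate 1 or 7000 uM replicate 3, and at least 1 of them without each other control or 7000 uM sample (adjusted p up to 0.135). Transcript epdl2-202, from an ependymin-like gene, was called in the share test alone. Its level lay at 8.96, 9.88 and 11.6 CPM in controls and 15.3, 17.5 and 11.4 CPM at 7000 uM, which overlapped, while its coding reads went from 83.1, 97.9 and 98.2 CPM to 42.4, 46.4 and 31.8 CPM (−1.20 ± 0.22, edgeR adjusted p = 0.00139). Its share was 9.73%, 9.16% and 10.5% in controls and 26.5%, 27.4% and 26.4% at 7000 uM (ratio 1.75 ± 0.33, adjusted p = 0.0276), lost without any control and without 7000 uM replicate 1 or 3 (up to 0.104).

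Ribosomal protein genes gave members with small shares that rose. In the share test rpl7-202, with shares of 0.869%, 0.752% and 1.01% in controls and 1.86%, 1.37% and 2.03% at 7000 uM, rose by 1.00 ± 0.23 (edgeR adjusted p = 0.0446). The share of rpl10a-204 went from 0.429%, 0.480% and 0.721% to 0.950%, 1.03% and 1.08% (ratio 0.94 ± 0.20, edgeR adjusted p = 0.0373). Coding reads of rpl7 and rpl10a were not called. Both share calls were lost without control replicate 1 or 2 or 7000 uM replicate 1 or 3, rpl7-202 also without control replicate 3 and rpl10a-204 also without 7000 uM replicate 2 (adjusted p up to 0.156), and the abundant rpl24-204 and rpl13a-203 were not called (0.20 ± 0.14 and −0.01 ± 0.10). The share calls of rpl7-202 and rpl10a-204 were also lost when replicate number was fitted as a block, and that of rpl10a-204 with diffSpliceDGE.

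**Figure D3:**
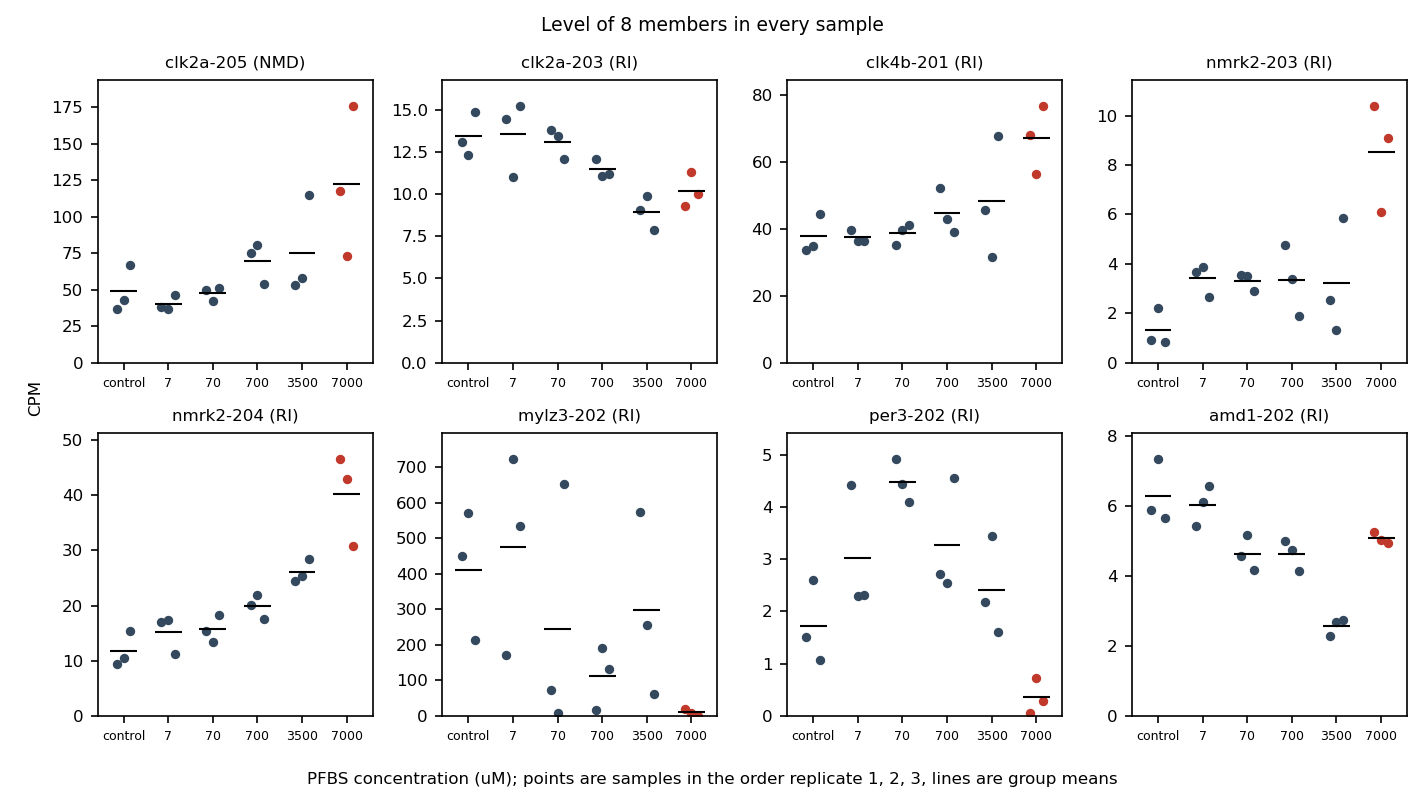
Levels in CPM (y axis) of 8 members in each sample of the 6 groups (PFBS concentration in uM, x axis); points are samples and lines are group means. The 7000 uM samples of nmrk2-203 reach 6.12 to 10.4, above the controls at 0.831 to 2.20, whereas amd1-202 is lowest at 3500 uM, at 2.30 to 2.74.

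The largest falls at 7000 uM came mostly from a fast muscle gene and from genes of the skin and epithelia. Muscle and epidermis marker levels fell as well. Members per3-202 and wdr3-204, not counted with either tissue, were also among the 8 largest falls named by rank. Transcript mylz3-202, a retained-intron form of a fast myosin light chain gene, had 449, 572 and 214 CPM in controls and 20.03, 8.36 and 0.624 CPM at 7000 uM (−5.41 ± 1.5, edgeR adjusted p = 0.0281). It varied as widely within other groups, from 7.35 to 653 CPM at 70 uM and from 16.8 to 192 CPM at 700 uM. Its call was lost without control replicate 1 or 2 or 7000 uM replicate 2 or 3 (adjusted p up to 0.108), and coding reads of mylz3 were lower by −0.69 ± 0.23 (adjusted p = 0.0389). Of 6 members of muscle marker genes, 3 fell (mylz3-202, ckmb-203 and tnnt3b-205), beside coding reads of 13 of 17 marker genes, where 6.53% of all transcripts and 12.4% of all genes were called lower. Without 7000 uM replicate 3 these counts were 0 and 9, where 13 of all 1279 members and 981 of all 20223 genes were called lower. The part of muscle content in these falls was not tested.

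Keratin genes of the skin gave a retained-intron and a nonsense-mediated-decay form that fell together. Level of cyt1l-201 was 8.63, 6.47 and 5.58 CPM in controls, 2.36, 2.93 and 2.92 CPM at 3500 uM and 0.642, 1.27 and 0.284 CPM at 7000 uM (−3.23 ± 0.52, edgeR adjusted p = 0.00224). That of cyt1l-203 was 11.2, 11.3 and 5.52 CPM in controls and 0.993, 1.45 and 0.567 CPM at 7000 uM (−3.21 ± 0.51, adjusted p = 0.00211). Coding reads of cyt1l fell less, from 1738, 1509 and 1367 CPM to 617, 662 and 159 CPM (−1.67 ± 0.42, edgeR adjusted p = 0.00934). The ratios were lower by −1.53 ± 0.29 (adjusted p = 0.0276) and −1.34 ± 0.30 (adjusted p = 0.0426), share calls lost with diffSpliceDGE, without control replicate 1 or 2 and without 7000 uM replicate 1, cyt1l-201 also without 7000 uM replicate 3 and cyt1l-203 also without 7000 uM replicate 2 (up to 0.674).

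Another keratin member, cyt1-202, went from 62.7, 50.5 and 47.8 CPM to 11.1, 17.01 and 2.10 CPM (−2.42 ± 0.64, edgeR adjusted p = 0.0227), and at 70 and 700 uM it had 5.68 to 31.8 CPM, also below all controls but not called. Transcript epcam-202, from the gene of an epithelial adhesion molecule, had 1.62, 0.667 and 1.13 CPM in controls and reads in only 1 of 3 samples at 7000 uM (0.242 CPM), with an adjusted p of 0.0218 by edgeR. Transcript frem3-201, from a gene of the extracellular matrix at the skin, fell by a log2 change of −2.27 ± 0.63 (adjusted p = 0.0274), and wdr3-204 had reads in 1 of 3 exposed samples (0.727 CPM; adjusted p = 0.0399). Calls of these 4 were lost without control replicate 1 or 7000 uM replicate 1 or 3, all but epcam-202 without control replicate 2, and frem3-201 without 7000 uM replicate 2 (adjusted p up to 0.13). Of 8 members of epidermis and notochord marker genes, 4 fell, beside coding reads of 9 of 12 such genes, where 6.53% of all transcripts and 12.4% of all genes were called lower. Without 7000 uM replicate 3 these counts were 3 and 8, where 13 of all 1279 members and 981 of all 20223 genes were called lower. The part of skin content was not tested.

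The crystallin members given here rose at 7000 uM, and so did the coding reads of crygm2d3. Level of crygm2d3-201 was 380, 377 and 408 CPM in controls, 688, 557.5 and 659 CPM at 3500 uM and 767, 680 and 728 CPM at 7000 uM (0.90 ± 0.11, edgeR adjusted p = 0.00059). Coding reads of crygm2d3 rose by 0.80 ± 0.17 (adjusted p = 0.00364), and its share was 51.3% to 62.4% in controls and 56.1% to 57.3% at 7000 uM. Transcript crygm2d17-203 rose by 0.95 ± 0.12 (edgeR adjusted p = 0.000598) and crygm2d7-202 by 1.23 ± 0.19 (adjusted p = 0.0018), again without a call in the share test. The mean retained-intron share within crygm2d17 went from 45.7% in controls to 54.0% at 7000 uM. Within crygm2d7 it went from 30.4% to 39.5%, and within crygm2d21 from 79.3% to 77.4%. Photoreceptor markers, of the same organ, had higher coding reads in 15 of 15 genes, where 12.8% of all genes were called higher. Without 7000 uM replicate 3 this count was 13, beside 1286 of all 20223 genes. The part of eye content was not tested. The neurexin member nrxn3a-204, from a gene of a presynaptic adhesion protein, rose from 60.8, 61.8 and 67.6 CPM to 88.3, 78.9 and 86.2 CPM (0.41 ± 0.09, edgeR adjusted p = 0.00849). Neuron markers (10 of 10 found, none at 0) summed to 2349 to 2640 CPM in controls and 2698 to 3179 CPM at 7000 uM. By gene, coding reads were called higher in 2 and lower in 1 of the 10, where 12.8% and 12.4% of all genes were called. Their median log2 fold change was 0.05, and without 7000 uM replicate 3 the counts were 1 and 1, beside 1286 and 981 of all 20223 genes.

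In the test of shares, 0 of 1237 tested members were called at 7, 70 or 700 uM, where all transcripts gave 0%, 0% and 0%. At an unadjusted p under 0.05 there were 56, 69 and 75 members, beside 476, 638 and 853 of all 17138 transcripts. By diffSpliceDGE 0 members were called at each, beside 0, 1 and 5 of all transcripts. At 3500 uM 1 member was called, and it was lower, against 0.0117% of all transcripts lower. It was amd1-202, with shares of 3.11%, 3.65% and 2.89% in controls and 1.49%, 1.61% and 1.49% at 3500 uM (ratio −1.09 ± 0.16, edgeR quasi-likelihood adjusted p = 0.036). The exposed samples lay below all controls. The call of amd1-202 was lost with diffSpliceDGE and without control replicate 1 or 2 or 3500 uM replicate 1 or 3 (adjusted p up to 0.297). Without 3500 uM replicate 2 the number of members called was 14, beside 306 of all transcripts.

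At 7000 uM 14 members had a higher share (11 retained intron, 3 nonsense-mediated decay) and 16 a lower one (8 and 8), against 1.15% and 1.28% of all transcripts tested. In both directions together 2.43% of tested members were called, the same as the 2.43% of all transcripts. By class this was 1.9% of retained-intron and 4.64% of nonsense-mediated-decay members, beside 4.39% of the coding transcripts of members' genes. Of the 14, 13 were also called higher by level, and the coding reads of their genes were not called in 10, lower in 3 and higher in 1. Of the 16, 12 were also called lower by level, and the coding reads were higher in 8, not called in 5 and lower in 3. The total of 30 was 1 without control replicate 1, 3 without control replicate 2 and 16 without control replicate 3. It was 6 without 7000 uM replicate 1 and 9 without 7000 uM replicate 3. Over all transcripts the 416 calls became 18, 29, 119, 95 and 70 in the same runs. With diffSpliceDGE the member total was 20, of which 8 were among the 30. When only transcripts with a mean of at least 20 counts were tested the total was 68, of which 28 were among the 30.

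The lower shares named by rank included nr1d2b-202 and per3-202. Transcript nr1d2b-202, from a gene of a REV-ERB repressor of the clock, had shares of 0.802%, 0.851% and 0.547% in controls and 0.0825%, 0.0557% and 0.263% at 7000 uM (ratio −2.53 ± 0.45, edgeR adjusted p = 0.0217). The clock gene per3 gave per3-202, at 1.51, 2.60 and 1.07 CPM in controls, 4.098 to 4.92 CPM at 70 uM and 0.0584, 0.727 and 0.284 CPM at 7000 uM (level −2.26 ± 0.58, adjusted p = 0.0201; ratio −2.53 ± 0.59, adjusted p = 0.0446). Its coding reads, 162 to 165 CPM in controls and 167 to 204 CPM at 7000 uM, were not called. At 70 uM both nr1d2b-202 (4.50 to 5.04 CPM against 1.66 to 2.60 CPM) and per3-202 lay above all controls, without a call. These share calls were lost without control replicate 1 or 2 or 7000 uM replicate 1, per3-202 also without control replicate 3 or 7000 uM replicate 3 (up to 0.148), and the level call of per3-202 without control replicate 2 or 7000 uM replicate 1 or 3 (up to 0.0859). The sources used here do not give the time of day of sampling.

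Transcript pck1-202, from the gene of a rate-limiting enzyme of gluconeogenesis, had shares of 2.94%, 1.95% and 1.02% in controls and 0.390%, 0.657% and 0.404% at 7000 uM (ratio −1.97 ± 0.46, edgeR adjusted p = 0.0447). For glula-203, from a glutamine synthetase gene, coding reads rose from 423, 467 and 490.5 CPM to 739, 681 and 880 CPM (0.74 ± 0.11, adjusted p = 0.000402) while the level of the member was not called, and its share went from 1.32%, 1.17% and 0.828% to 0.339%, 0.522% and 0.520% (ratio −1.27 ± 0.31, adjusted p = 0.05 after rounding, below the threshold). The ratio of tmem59-203 was lower by −1.5 ± 0.36 (adjusted p = 0.0465) and that of ilf3b-205, from the gene of a double-stranded RNA-binding protein, by −1.41 ± 0.32 (adjusted p = 0.0408). In each of these 4 the exposed shares lay below all controls. All 4 calls were lost with diffSpliceDGE and without control replicate 1 or 2 or 7000 uM replicate 1 or 3; tmem59-203, ilf3b-205 and glula-203 were lost without 7000 uM replicate 2, and the last pair without control replicate 3 (adjusted p up to 0.442).

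Set against the coding reads of the same gene, changes of members were mostly not mirrored by a called change. Of the 89 rises at 7000 uM, coding reads could be tested for 85 and were called higher for 29, lower for 6 and not called for 50. The uncalled 50 went the same way as the member in 32 and the other way in 18. The median log2 fold change was 0.88 for these 89 members and 0.22 for the coding reads. Members were picked for a called change and coding reads were not, so a smaller coding median could arise from that choice alone. Over all 1237 members in the share test at 7000 uM the median log2 change of the ratio was 0.03, with 51.3% above 0. Of the 37 falls, coding reads were called lower for 17, higher for 4 and not called for 16 (medians −1.48 and −0.30). At 3500 uM the rises had called coding rises in 8 of 18 tested and the falls called coding falls in 1 of 11, with none opposite.

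**Figure D4:**
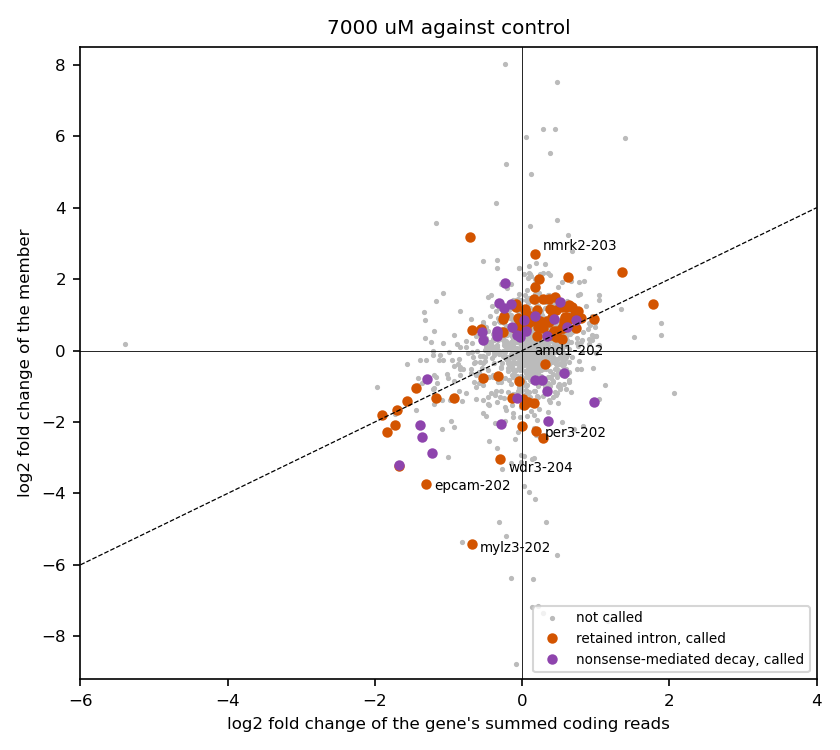
Log2 fold change of each member at 7000 uM against control (y axis) over that of the summed coding reads of its gene (x axis); coloured points are members with a called level, grey points are not called, and the dashed line marks equal change. Called rises, which were picked by their change on the y axis, have a median of 0.88 there and 0.22 on the x axis, and mylz3-202 is the lowest called point at −5.41.

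Pooled over genes, the reads of retained-intron members made up 4.68%, 5.002% and 4.98% of member plus coding reads in controls and 6.37%, 6.15% and 7.19% at 7000 uM, which did not overlap. Group means were 4.89 ± 0.18% (SD, n = 3) in controls, 4.94 ± 0.13% at 7 uM, 5.17 ± 0.06% at 70 uM, 5.45 ± 0.29% at 700 uM, 5.42 ± 0.32% at 3500 uM and 6.57 ± 0.55% at 7000 uM. The difference at 7000 uM gave p = 0.1 in an exact two-sided permutation test, the smallest p that 3 against 3 allows, and a permutation test of the F statistic over the 6 groups gave p = 0.00032 (F = 12.7). For nonsense-mediated-decay members the samples had 4.60%, 4.98% and 5.27% in controls and 6.29%, 6.23% and 7.77% at 7000 uM, also without overlap. Their group means were 4.95 ± 0.33% in controls, 5.21 ± 0.27% at 7 uM, 5.97 ± 0.62% at 70 uM and 6.155 ± 0.396% at 700 uM. At 3500 and 7000 uM they were 5.84 ± 0.20% and 6.76 ± 0.87%. All samples at 70, 700 and 3500 uM also lay above every control. The difference at 7000 uM gave an exact permutation p = 0.1, and over the 6 groups F was 5.07 (permutation p = 0.0043).

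The pooled rises were smaller when the number of reads per gene was held constant. With every gene held at its control weight, a measure chosen after seeing the data, the retained-intron share was 4.92 ± 0.26% in controls and 5.15 ± 0.19% at 7000 uM (difference 0.229 points, exact permutation p = 0.3; over the 6 groups p = 0.12). For nonsense-mediated decay it was 0.531 points higher at 7000 uM (exact permutation p = 0.1; over the 6 groups p = 0.0025). The median share over genes was 3.304% in controls and 3.37% at 7000 uM for retained-intron members, and 0.278 points lower at 7000 uM for nonsense-mediated-decay members. By gene, the crystallins crygm2d3 and crygm2d17 contributed 0.229 and 0.221 points to the retained-intron difference, srsf5a 0.122 points and mylz3 −0.183 points. To the nonsense-mediated-decay difference the keratin gene krt91 contributed 0.264 points and clk2a 0.262 points. The share within krt91 fell, from 0.157% to 0.0858%, and its contribution came with the gene's drop from 9.68% to 4.12% of the pooled reads. Within clk2a the share rose from 30.9% to 54.25%.

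**Figure D5:**
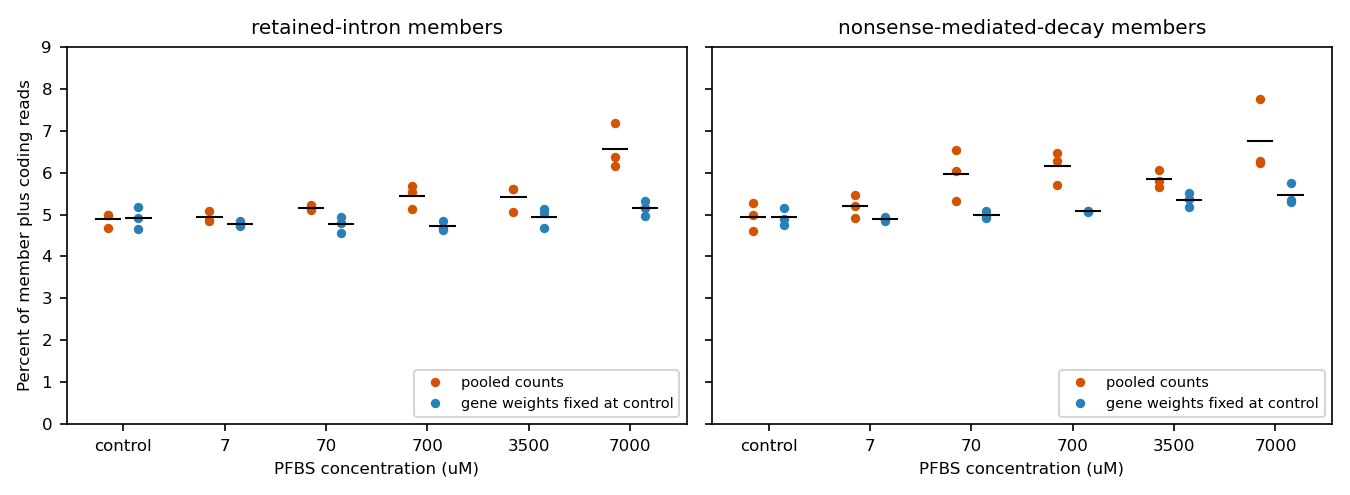
Reads of members in percent of member plus coding reads of their genes (y axis) in each sample of the 6 groups (PFBS concentration in uM, x axis), for retained-intron and nonsense-mediated-decay members; orange points pool all reads, blue points hold each gene at its control weight, and lines are group means. Pooled means rise from 4.89% to 6.57% and from 4.95% to 6.76%, and the retained-intron share at fixed weights moves from 4.92% to 5.15%.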

How the data were processed

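Per the labels, total RNA of whole larvae was sequenced in 18 samples, and per the file headers the deposited table gives read counts, RPKM and TPM per transcript, with gene, biotype and coordinates. The sources used here do not give the aligner, counter, genome build, strand setting or division of reads among transcripts, and coordinates are as deposited. The deposited read counts were used for every test. The RPKM values deposited by the authors gave transcript lengths, and the deposited TPM values gave levels per length and an alternative pooled share. Levels were fitted with edgeR 4.0.16 (R 4.3.3; TMM, filterByExpr, quasi-likelihood test, all 18 samples with a mean per group and 12 residual degrees of freedom) on 31721 transcripts. Shares were fitted with the same test as an interaction of each transcript with the summed reads of the other coding transcripts of its gene (17138 transcripts), and coding reads as sums per gene (20223 genes). The SE after ± on a log2 fold change or ratio was not reported by the fit. It was back-calculated as the absolute log2 change divided by the square root of the quasi-likelihood F, and is approximate, most of all near 0 reads. P-values were adjusted by Benjamini-Hochberg over all features of a fit, with a threshold of 0.05; DESeq2 1.42.0 was an alternative. CPM are counts scaled to the counted reads of each library times its TMM factor (0.9006 to 1.082 over the samples). Pooled shares were tested in Python 3.11.15 with scipy 1.17.1 (exact permutation for 3 against 3, 100000 resamples over 6 groups). The scripts were tested on simulated data with a dispersion (spread beyond counting noise) of 0.05. The common dispersion fitted here was larger, at 0.096 for levels and 0.276 for shares. Simulated share changes were set only in transcripts with a mean of at least 20 counts. The simulation therefore does not show how the tests perform at the spread of these data or for rarer members. Of 1308 members, 29 failed the low-count filter and 31 had no coding transcript.

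Named members were the 8 largest rises and falls per test and concentration with at least 1 CPM in the higher group (for levels, also with exposed samples outside the control range), the 8 most abundant of each class, and members of the gene lists. The members and lists were chosen with earlier results of these data known. Same-numbered samples did not deviate together (45 pairs, correlation −0.26 to 0.17, 7 over 0.1), so numbers were not taken as pairs. Alternatives were DESeq2 size factors, no low-count filter, DESeq2, a replicate block, a mean of at least 20 counts, diffSpliceDGE, TPM, a 20-read member minimum, medians over genes, leaving out each sample, and, added after seeing the data, fixed gene weights and list counts without 7000 uM replicate 3. No sequence is printed, and 1 member is not reported here.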

Additional observations from a re-analysis of the deposited data

How the results depend on the processing

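No named member reversed direction in any alternative run, but single calls did change member and direction. The 1 higher level call was replaced by 1 lower without 70 uM replicate 3 (at 70 uM) and without 700 uM replicate 2 (at 700 uM), and the 1 lower share at 3500 uM by 1 higher without control replicate 2. At 7 uM DESeq2 called 2 members. At 70 uM the call of 1 became 0 without a low-count filter and with the replicate block, 4 with DESeq2 and 0 to 1 when each sample was left out. At 700 uM these were 0, 0, 16 and 0 to 3. At 3500 uM DESeq2 called 59 and leaving out samples gave 9 to 72. At 7000 uM no filter gave 83 and leaving out samples 39 to 123. Calls over all transcripts also moved when samples were left out, to 219 to 2882 at 3500 uM (1039 with every sample) and 1616 to 4860 at 7000 uM (4510). Called shares at 3500 uM were 4 with a mean of at least 20 counts, 2 with diffSpliceDGE and 0 to 14 when samples were left out. At 7000 uM they were 68 with that minimum (37 higher), 10 with the replicate block and 1 to 33 when samples were left out. DESeq2 size factors moved the median of all transcripts by at most 0.0187. The replicate block changed no other count by over 1.5 times, and under it 9 of 56 named level calls and 14 of 24 named share calls no longer passed. The 14 were those of nmrk2-203, snrpa1-204, srsf2a-210, rbm5-204, rbmx-204, per3-202, pck1-202, glula-203, tmem59-203, ilf3b-205, cyt1l-201, cyt1l-203, rpl7-202 and rpl10a-204 at 7000 uM. Most losses given beside single members above leave out those under the replicate block, with no low-count filter or with DESeq2 size factors. With no filter, the named level calls of ucp2-202 at 70 and 700 uM were lost. At 3500 uM the 4 lost were phka1b-205, srd5a2a-203, slc25a36a-203 and pnisr-205. At 7000 uM 8 were lost, among them polr2i-203, wdr3-204, sf1-201, sf3b1-202, hnrnpk-204, hnrnpa0b-203 and srsf6b-203. DESeq2 size factors lost the level calls of sf3b1-202 and srsf6b-203 at 7000 uM.

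The pooled retained-intron share over 6 groups had F = 2.21 (permutation p = 0.12) at fixed gene weights. The nonsense-mediated-decay difference at 7000 uM was −0.278 points by medians over genes, where F over 6 groups was 2.15 (permutation p = 0.13). Leaving out samples gave F of 10.3 to 14.6 and 3.89 to 6.22, and differences of 1.37 to 1.90 and 1.31 to 2.08 points. The cause of these shifts was not tested, except that fits without a sample have fewer samples. Of 37 level results named at 7000 uM, 14 were called in every alternative, of 17 at 3500 uM 6, and of 23 share results none.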
